A study of Homo sapiens with 8 samples.

Results

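Solute carrier (SLC) genes encode transporters named by family number and member, such as SLC2A1, and were taken here as every symbol of the form SLC, number, A, number. The day 2 table held 176 such genes of 42 families among 11644 genes, and 173 of them were abundant enough to be tested. The day 0 table held 198 among 14070 genes, of which 171 were in both tables, 27 at day 0 only and 5 at day 2 only. All values are from RNA-seq of the established line H1 (human embryonic stem cells), either wild type (WT) or knocked out for SETD7 (SETD7 KO), a gene for a lysine methyltransferase. Day 0 is 1 library per genotype of cells kept in mTESR medium, deposited as FPKM, a unit scaled for length and depth. Day 2 is 3 libraries per genotype on the second day of a protocol directed towards blood lineages, deposited as counts. The sources used here do not give how the knockout was made, whether it is 1 clone, or whether replicates are separate cultures.

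Solute carriers move nutrients, ions, vitamins and metabolites across the plasma membrane or the membranes of organelles, without hydrolysing ATP themselves. Members of a family share sequence and usually a class of cargo: SLC2 carries hexoses, SLC1, SLC6, SLC7 and SLC38 carry amino acids, SLC30 and SLC39 move zinc out of and into the cytosol, and SLC25 serves the inner mitochondrial membrane. Pluripotent cells in culture take up much glucose and glutamine, and several SLC7 exchangers work only as dimers with the heavy chain SLC3A2.

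Libraries of day 2 held between 27880068 and 39553614 counts; for day 0 the depth is unknown. SETD7 was 54.8, 56.2 and 55.6 CPM (counts scaled to a common library size) in the WT libraries of day 2 and 32.9, 28.9 and 33.7 CPM in the knockout, and 3.53 and 1.48 FPKM at day 0. The mesoderm markers MIXL1 and EOMES stood at 1467 and 1099 CPM in day 2 WT cells, against 0.598 and 0.142 FPKM at day 0, while POU5F1 was 148.9 FPKM at day 0. None of 5 neural ectoderm markers and 1 of 10 blood and endothelial markers, RUNX1, were among the genes tested at day 2. The pluripotent marker SOX2 (157 FPKM in day 0 WT cells) and the endoderm markers FOXA2 and FOXA1 were not tested either. They are not in the counts and sums below. Between genotypes at day 2, 1 of 7 pluripotent markers rose and 2 fell, with summed levels of 2282 to 2324 CPM in WT and 2312 to 2369.7 CPM in the knockout. Of 9 mesoderm markers 3 rose and 3 fell, with sums of 4015 to 4066 and 4109 to 4167 CPM. Of 4 endoderm markers 1, SOX17, fell, with sums of 923 to 942 and 856 to 875 CPM. By the same calls 12.3% of all tested genes rose and 11% fell. The mesoderm and endoderm sums did not overlap between genotypes, and their part in the carrier results was not tested. In bulk RNA, fewer cells of a type and less RNA per cell cannot be told apart.

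At day 2 more SLC genes were higher than lower in the knockout. Of the 173 tested, 39 rose (22.5%) and 10 fell (5.78%) in edgeR's quasi-likelihood test at an adjusted p under 0.05, and 124 were not called. Over all 11475 tested genes 12.3% rose and 11% fell. The median log2 fold change (knockout minus WT, as throughout) was 0.071 for SLC genes and −0.003 for all genes, and 108 SLC genes had a positive value. Changes were small: the called SLC genes had a median absolute log2 fold change of 0.26, 25 of the 49 differed by less than 1.2-fold, and 9 rose and 1 fell by 1.5-fold or more. The 3 knockout libraries lay wholly above the WT libraries in 57 SLC genes and wholly below in 20, against 18.9% and 18.8% of all genes. Rises were spread over levels, with 22.2% higher among SLC genes under 10 CPM, 20% from 10 to 50 CPM and 25.9% above, where all genes had 11.1%, 12.9% and 12.3%. Falls were at 1.85%, 10.8% and 3.70% of SLC genes in those bands, against 3.56%, 8.14% and 18% of all genes. The higher count ran from 29 to 46 over the other settings tried. The lower count was 6 without WT replicate 1 and 6 without WT replicate 3, and 5 of 92 when members whose exons overlap another gene were left out (26 of the 92 rose).

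**Figure D1:**
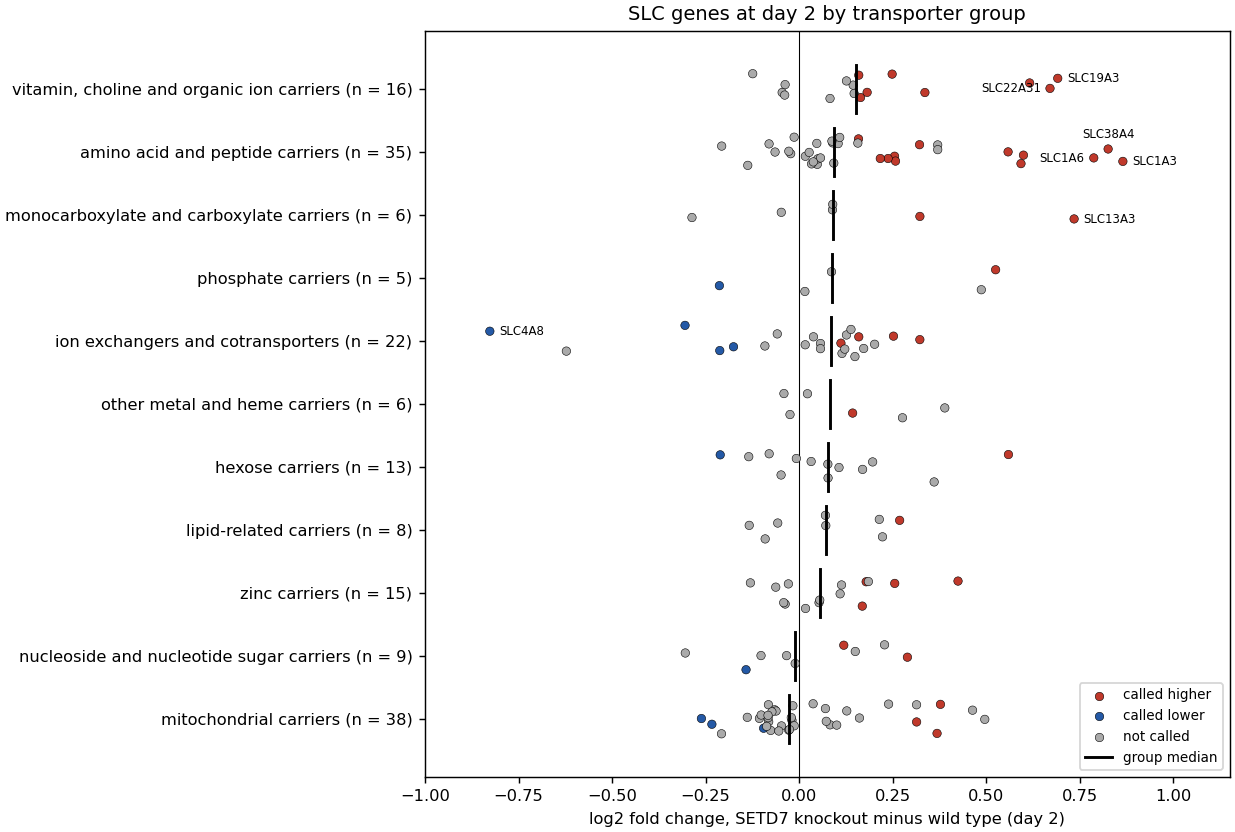
Log2 fold change at day 2 (horizontal axis, knockout minus wild type) of each of 173 tested SLC genes (points), in rows by transporter group, with the group median as a bar and colour giving the edgeR call. Red points reach 0.86 for SLC1A3 among amino acid carriers, the largest fall is SLC4A8 at −0.83, and the mitochondrial row is centred at −0.03.

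The other transporter genes of the table did not share one split. Of 24 tested SLC genes with other letters or the SLCO form, 1 rose (4.17%) and 4 fell (16.7%). Among 19 ABC transporters, which do hydrolyse ATP, 4 rose (21.1%) and 1 fell (5.26%). These ABC shares were near the 22.5% and 5.78% of the SLC genes. Of 30 ATP-driven ion pumps 7 rose (23.3%) and 3 fell (10%). Among all tested genes 12.3% rose and 11% fell. More calls up than down were therefore not particular to the SLC genes, though these other sets hold few genes. The log2 fold change was positive in 16 of the 19 ABC transporters but in only 10 of the 30 pumps. The median log2 fold changes of these 3 other sets were 0.004, 0.108 and −0.041. No test compared them with the SLC genes.

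The most abundant carriers per length were mostly those of the inner mitochondrial membrane and of glucose and amino acid uptake, with the zinc carrier SLC39A1 among them. At day 2 the length was that of all annotated exons of a gene together, not of the transcript expressed. The day 2 order therefore depends on the annotation. In day 2 WT cells the order by mean CPM per kilobase of exon was SLC25A5 (ADP/ATP exchange, 175), SLC7A5 (leucine and other large neutral amino acids, 123), SLC2A3 (glucose, 92.2), SLC39A1 (zinc, 83.4), SLC25A1 (citrate, 70.6), SLC38A2 (neutral amino acids, 68.9), SLC1A5 (glutamine and other neutral amino acids, 59.4), SLC25A3 (phosphate, 58.1), SLC3A2 (57.3) and SLC25A13 (aspartate and glutamate, 51.1). SLC1A5, SLC25A3 and SLC3A2 are neighbours in that order whose values lie within the spread between libraries (SD 4.78 of 198 CPM for SLC1A5 and 14 of 516 CPM for SLC25A3). Of these 10, only SLC25A1 and SLC25A3 were called between genotypes. At day 0 the highest WT FPKM were SLC25A5 (287), SLC3A2 (170.2), SLC25A6 (154), SLC1A5 (147), SLC25A3 (129), SLC7A3 (121), SLC25A29 (109), SLC2A3 (107), SLC16A1 (103) and SLC29A1 (90.6). SLC25A5, SLC25A6, SLC25A1, SLC2A3, SLC7A5, SLC25A3 and SLC16A1 have near-identical copies or pseudogenes, so their levels are uncertain. Of the 3 members too low to test at day 2, the lactate carrier SLC16A1 had 2, 2 and 0 counts in WT and 5, 4 and 4 in the knockout, although it had 103 and 66.3 FPKM at day 0. The zinc carrier SLC39A7 had 0, 0 and 0 against 0, 2 and 2 counts, with 14.2 and 13.6 FPKM at day 0, and SLC2A6 had 2 counts in 1 knockout library. What set these counts near 0 was not tested, and no level is read from them.

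Amino acid and peptide carriers were the largest group with rises and no fall. Of 35 tested, 12 rose (34.3%, against 12.3% of all tested genes) and none fell. In 28 the log2 fold change was positive, and the group median was 0.09. The libraries lay wholly higher in 18 and wholly lower in 2, against 18.9% and 18.8% of all genes. The 3 largest rises were in carriers of low level. SLC1A3, a sodium-coupled glutamate and aspartate importer (chr5:36606355-36688334, plus strand, GRCh38), had 5.90, 5.27 and 5.81 CPM in WT and 10.1, 9.85 and 10.9 CPM in the knockout. Every knockout library was above every WT library, and the means differed by 0.86 on the log2 scale (SE 0.116, edgeR adjusted p 7.77e-07). SLC38A4, which imports neutral and cationic amino acids with sodium (chr12:46764761-46832408, minus strand), had 3.94, 5.02 and 5.54 CPM in WT and 8.74, 7.67 and 9.41 CPM in the knockout (0.83, SE 0.135, edgeR adjusted p 1.92e-05). SLC1A6, another glutamate importer (chr19:14950034-15022990, minus strand), had 3.65, 4.27 and 4.18 CPM in WT and 6.79, 6.81 and 7.36 CPM in the knockout (0.79, SE 0.138, edgeR adjusted p 5.35e-05). Neither gene's libraries overlapped between genotypes.

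The stretches upstream of these 3 genes and of SLC4A8, the gene with the largest fall, are shown because they belong to the members that moved most. Each is the 250 bases before the most upstream start in the RefSeq table of GRCh38.p14, in the gene's own direction. Capitals mark matches on either strand to TGATGNAA, a core of the amino acid response element bound by ATF4, and to ACGTG, the core of sites for bHLH factors such as HIF1. Positions are chr5:36596338-36596587 (plus) for SLC1A3, chr12:46825998-46826247 (minus) for SLC38A4, chr19:15010644-15010893 (minus) for SLC1A6 and chr12:51424581-51424830 (plus) for SLC4A8. All but that of SLC1A3 lie within the longer gene span of GENCODE.
SLC1A3: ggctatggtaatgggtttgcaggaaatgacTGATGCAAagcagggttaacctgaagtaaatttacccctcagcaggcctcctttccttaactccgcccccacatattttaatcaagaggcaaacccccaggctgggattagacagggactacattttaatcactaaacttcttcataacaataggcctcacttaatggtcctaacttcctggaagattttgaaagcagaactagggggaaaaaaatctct
SLC38A4: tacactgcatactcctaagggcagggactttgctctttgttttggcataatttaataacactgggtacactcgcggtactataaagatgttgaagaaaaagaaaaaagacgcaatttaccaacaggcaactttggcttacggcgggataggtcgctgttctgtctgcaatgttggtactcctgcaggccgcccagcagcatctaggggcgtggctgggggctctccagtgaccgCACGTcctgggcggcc
SLC1A6: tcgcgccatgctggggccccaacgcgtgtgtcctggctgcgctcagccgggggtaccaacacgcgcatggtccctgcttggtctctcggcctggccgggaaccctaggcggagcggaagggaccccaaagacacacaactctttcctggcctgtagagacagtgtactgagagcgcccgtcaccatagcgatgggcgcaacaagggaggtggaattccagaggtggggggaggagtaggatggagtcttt
SLC4A8: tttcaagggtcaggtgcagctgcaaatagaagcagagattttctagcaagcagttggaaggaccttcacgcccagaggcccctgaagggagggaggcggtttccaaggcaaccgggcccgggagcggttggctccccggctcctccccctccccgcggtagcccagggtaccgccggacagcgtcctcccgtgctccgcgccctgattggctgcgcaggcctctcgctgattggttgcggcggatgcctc
SLC1A3 held 1 match to TGATGNAA and SLC38A4 held 1 to ACGTG, read on the opposite strand. Some genes have several starts, and 135 of the 173 tested members matched the table. TGATGNAA was in 3.14% of all 35116 windows and in 2.45% of 204 windows of tested SLC genes. ACGTG was in 18.5% of all windows, 26.5% of those of tested SLC genes, 34% of 50 windows of members that rose and 1 of 9 windows of members that fell. CACGTG, which contains ACGTG and so overlaps it, was in 6.34% of all and 13.7% of SLC windows. TGCNCNC, the metal response element core, was in 49.1% and 57.4%, and CTTTGAT, a TCF/LEF site, in 2.26% and 0.98%. A match is a description of letters, not of a bound site.

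Of the cationic amino acid carriers of family SLC7, SLC7A2, SLC7A3 and SLC7A7 rose, while SLC7A1 (0.09, edgeR adjusted p 0.0815) and SLC7A6 (0.03, 0.735), named after their values were seen, were not called. SLC7A2, which imports arginine and lysine, had 22.6, 25.9 and 25.5 CPM in WT and 37.8, 37.8 and 36.5 CPM in the knockout (0.60, SE 0.064, edgeR adjusted p 9e-09). SLC7A3, a related arginine carrier, had 74.9, 74.1 and 71.5 CPM against 83.1, 85.1 and 88.2 CPM (0.22, edgeR adjusted p 0.000329). Both were higher in 3 of 3 knockout libraries than in any WT library. Family SLC43 had 2 tested members and both rose: SLC43A3, which carries purine nucleobases rather than amino acids, went from 7.52 ± 0.886 to 11.4 ± 1.03 CPM (SD, n = 3; 0.59, edgeR adjusted p 0.000138). SLC43A1, a carrier of large neutral amino acids, went from 10.7 ± 0.260 to 12.8 ± 0.647 CPM (0.26, edgeR adjusted p 0.0431). The most abundant riser among the amino acid carriers was SLC6A6, the sodium-coupled taurine importer, at 166, 162 and 158 CPM in WT and 197, 190.2 and 186 CPM in the knockout (0.24, edgeR adjusted p 3.98e-06). The glutamine carrier SLC38A5 (0.16) rose too, as did, named after their values were seen, SLC7A7 (0.32) and SLC17A9 (a vesicular ATP carrier, 0.25). Of the 12, 7 had a WT mean under 11 CPM.

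The most abundant amino acid carriers were not called at day 2. SLC7A5 had 559, 598 and 596 CPM in WT and 655, 591 and 616 CPM in the knockout (0.09, edgeR adjusted p 0.0693), and these ranges overlap. SLC38A1, a glutamine importer, was 466 ± 1.38 against 482 ± 7.79 CPM (0.05, edgeR adjusted p 0.276). SLC3A2 (0.03), SLC1A5 (0.05) and SLC38A2 (−0.08) were also not called, with edgeR adjusted p of 0.602, 0.308 and 0.0537. Of the 12 calls, 9 held under all 13 alternatives. SLC43A1 lost its call with DESeq2, limma-voom or the replicate block and without WT replicate 1, 2 or 3 or knockout replicate 1 or 3, with adjusted p from 0.0321 to 0.145 over all alternatives. SLC7A7 lost it in the same 3 fits, without any 1 of the WT replicates and without knockout replicate 1 or 2 (0.0327 to 0.21 over all). SLC38A5 lost it without WT replicate 1 or 3 or knockout replicate 2 or 3 (0.0102 to 0.075 over all).

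**Figure D2:**
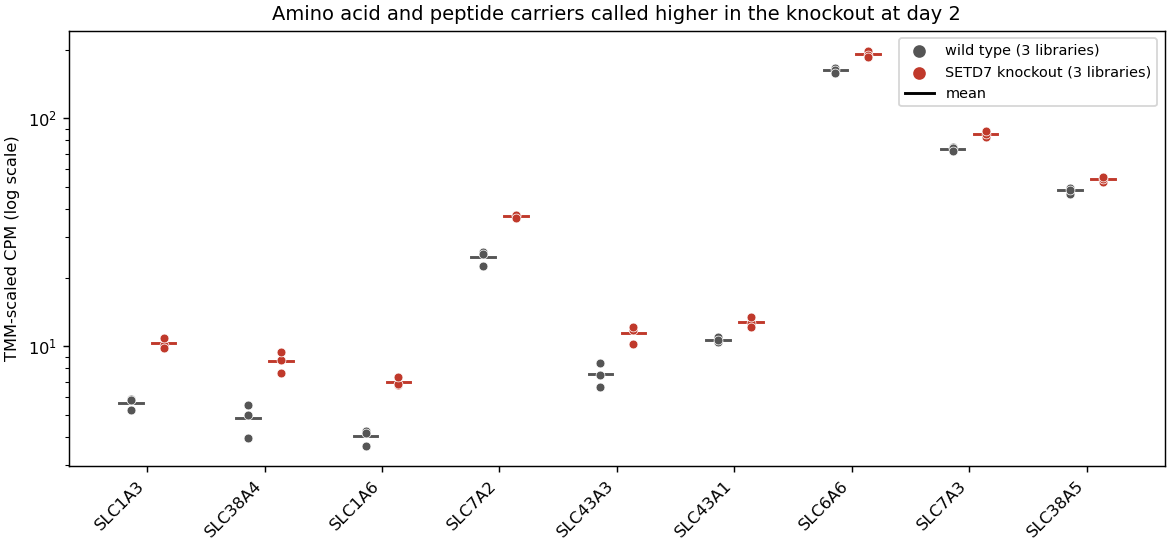
TMM-scaled CPM (log axis) of 9 of the 12 amino acid and peptide carriers called higher at day 2, with 1 point per library (3 wild type in grey, 3 knockout in red) and bars at the group means. SLC1A3 runs from 5.27 to 5.90 CPM in wild type and from 9.85 to 10.9 CPM in the knockout, while the abundant SLC6A6 moves from 158 to 166 up to 186 to 197 CPM.

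Hexose carriers, here families SLC2, SLC5, SLC45 and SLC50, moved little at day 2: of 13, 1 rose and 1 fell. Each is 7.69%, against 12.3% and 11% of all tested genes. The groups follow family number, so a member may carry other cargo, as SLC2A13 does. SLC2A13, which imports myo-inositol with protons, had 14.5, 16 and 15.3 CPM in WT and 22.2, 22.7 and 22.9 CPM in the knockout (0.56, SE 0.076, edgeR adjusted p 8.44e-07). SLC50A1, a sugar carrier of the SWEET family, had 48.4, 45.8 and 48.7 CPM against 40.5, 41.7 and 41.2 CPM (−0.21, edgeR adjusted p 0.00352). Neither overlapped between genotypes. The main glucose importers missed the threshold. SLC2A3 was 568 ± 5.95 in WT and 598 ± 3.97 CPM in the knockout (0.08, edgeR adjusted p 0.058). Its knockout libraries lay wholly above WT, and it was called in 4 of 13 alternatives, those with upper-quartile scaling, DESeq2, limma-voom and without knockout replicate 1, so the count of hexose carriers that rose ran from 1 to 3. SLC2A1, named after its values were seen, was 141 ± 4.19 and 149 ± 3.32 CPM (0.08, edgeR adjusted p 0.131). All 7 tested members of family SLC2 had a positive value. Of 21 genes of hexose metabolism 3 rose (14.3%) and 6 fell (28.6%), and glycolytic enzymes went both ways. The rises were PDK1 (0.51) and, named after their values were seen, the glycolytic enzymes ENO2 (0.33) and PFKP (0.17), and the falls included ALDOA (−0.21) and TPI1 (−0.15). Among 6 monocarboxylate and carboxylate carriers 2 rose and none fell. SLC16A3, which exports lactate, went from 19.5 ± 0.594 to 24.3 ± 0.531 CPM (0.32, edgeR adjusted p 0.000776), and SLC13A3, a sodium-coupled dicarboxylate importer, from 3.73 ± 0.755 to 6.20 ± 0.432 CPM (0.73, edgeR adjusted p 0.000539).

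Zinc carriers that rose were all of the importing family. Of 10 SLC39 genes 4 rose, none fell and 9 had a positive value, while of 5 SLC30 exporters none was called and 1 had a positive value. Among all tested genes 12.3% rose and 11% fell. The families are small, and the difference between them was not tested. SLC39A10, a plasma membrane zinc importer, had 130.5, 123 and 122 CPM in WT and 151, 147 and 150.2 CPM in the knockout (0.26, SE 0.037, edgeR adjusted p 3.22e-06). SLC39A14, which carries zinc, iron and manganese, had 254, 278 and 268 CPM against 305, 299 and 302 CPM (0.18, edgeR adjusted p 0.00012). In both genes the lowest knockout library exceeded the highest WT library. SLC39A4 (0.42, edgeR adjusted p 0.0247) and SLC39A13 (0.17, edgeR adjusted p 0.0431) were less steady. SLC39A4 lost its call without WT replicate 2 or 3 or knockout replicate 2 (0.00981 to 0.211 over all alternatives), and SLC39A13 in 10 of 13 alternatives: without any 1 of the 6 libraries, with no low-count filter, with a mean of at least 1 CPM, with DESeq2 and with the replicate block (0.0275 to 0.156 over all). The most abundant zinc carrier, SLC39A1 (0.05), was not called, and neither was SLC30A9 (−0.03), with edgeR adjusted p of 0.255 and 0.663. SLC39A14 and SLC39A10, which rose, were both more abundant than SLC30A9 (107 CPM in WT).

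Of 6 carriers of other metals and heme 1 rose (16.7%) and none fell, against 12.3% and 11% of all tested genes. SLC11A2, which takes iron from endosomes into the cytosol, had 67.8, 65.8 and 68.3 CPM in WT and 77.2, 73.2 and 72.3 CPM in the knockout (0.14, edgeR adjusted p 0.0203). Its libraries did not overlap, but the call was lost without WT replicate 2 or knockout replicate 1 (0.00968 to 0.0882 over all alternatives). The transferrin receptor TFRC, no SLC gene but the source of that endosomal iron, had 349, 345 and 345 CPM against 423, 437 and 439 CPM (0.32, edgeR adjusted p 8.06e-10). The copper carrier SLC31A1 (−0.04) and the magnesium carrier SLC41A1 (0.02) were not called, with edgeR adjusted p of 0.557 and 0.78. The iron exporter SLC40A1, named after its values were seen, was 4.21 ± 0.393 in WT and 5.12 ± 0.777 CPM in the knockout (0.28, edgeR adjusted p 0.21).

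Mitochondrial carriers, the largest family with 38 tested members, had calls in both directions: 3 rose, 3 fell, and 14 had a positive value (median −0.03). The 7.89% called each way were below the 12.3% and 11% of all tested genes. Without WT replicate 1, and likewise without knockout replicate 1, 5 rose and 2 fell. SLC25A1, which exports citrate for lipid synthesis (chr22:19175575-19178830, minus strand), had 146, 153 and 145 CPM in WT and 124, 125 and 122 CPM in the knockout (−0.26, SE 0.037, edgeR adjusted p 1.67e-06). SLC25A29, a carrier of basic amino acids, had 66.7, 70.6 and 66.9 CPM against 87.2, 82.7 and 83.9 CPM (0.31, edgeR adjusted p 1.91e-06). SLC25A37, mitoferrin, which brings iron into mitochondria (chr8:23528805-23575463, plus strand), had 81.8, 73.5 and 77.8 CPM against 105, 95.2 and 102 CPM (0.38, SE 0.046, edgeR adjusted p 1.1e-07). None of these 3 overlapped between genotypes, and their calls held under all 13 alternatives. SLC25A23, which exchanges ATP-Mg for phosphate, went from 41.6 ± 2.21 to 35.5 ± 1.93 CPM (−0.23, edgeR adjusted p 0.00358), and the phosphate carrier SLC25A3 from 516 ± 14 to 484 ± 15.6 CPM (−0.10, edgeR adjusted p 0.0275). The third rise was in SLC25A53 (0.37, edgeR adjusted p 0.0368), whose libraries overlapped. SLC25A23 lost its call without WT replicate 2 (0.00326 to 0.0588 over all alternatives). SLC25A3 lost it with upper-quartile scaling, the replicate block, or without WT replicate 1 or 3 or knockout replicate 1 or 3 (0.0151 to 0.146). SLC25A53 lost it with DESeq2, the replicate block, or without WT replicate 2 or 3 or knockout replicate 2 or 3 (0.00863 to 0.249). SLC25A5 (−0.08) and SLC25A13 (0.08) were not called, with edgeR adjusted p of 0.138 and 0.0692.

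Ion carriers went both ways, 4 up and 4 down of 22 (18.2% each, against 12.3% and 11% of all tested genes). SLC4A8, a sodium-driven chloride and bicarbonate exchanger (chr12:51391317-51515763, plus strand), was the SLC gene with the largest fall, from 10.5, 10.1 and 11.6 CPM to 5.54, 7.10 and 5.51 CPM (−0.83, SE 0.120, edgeR adjusted p 2.87e-06). Its sequence upstream is printed above, and all knockout libraries lay below all WT libraries. In the same family the bicarbonate carriers SLC4A7 (0.16) and SLC4A2 (0.11), and SLC4A11 (0.25), rose, so 4 of the 5 tested SLC4 genes were called, in opposite directions. The sodium/proton exchangers were also divided. SLC9A5 rose from 17.3 ± 0.455 to 21.6 ± 0.637 CPM (0.32, edgeR adjusted p 0.00139), while SLC9A7, of the Golgi, fell from 18.2 ± 1.34 to 14.7 ± 1.13 CPM (−0.31, edgeR adjusted p 0.00692). SLC12A2, which imports sodium, potassium and chloride together, fell from 38.3 ± 0.773 to 34 ± 0.630 CPM (−0.18, edgeR adjusted p 0.0229). SLC12A4 (0.13) and SLC26A6 (−0.06) were not called, with edgeR adjusted p of 0.0546 and 0.442. SLC12A2 lost its call without any 1 of the 6 libraries (0.0227 to 0.0905 over all alternatives), and SLC4A2 with DESeq2, the replicate block, without any 1 of the WT replicates and without knockout replicate 1 or 3 (0.0129 to 0.186). SLC4A11 lost it without knockout replicate 3 (0.00243 to 0.08) and SLC9A7 without WT replicate 3 (0.00523 to 0.0612).

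Vitamin, choline and organic ion carriers had the highest share of rises among the groups, 8 of 16 (50%), with no fall and a median of 0.15. The shares of all tested genes were 12.3% higher and 11% lower. Family SLC22, of organic cation and anion carriers, held 4 of the 8 among 5 tested. SLC22A3, a carrier of monoamines and other organic cations, had 8.54, 9.85 and 10.4 CPM in WT and 14.7, 13.7 and 15.8 CPM in the knockout (0.62, SE 0.097, edgeR adjusted p 1.11e-05). SLC22A31 had 5.57, 5.58 and 4.45 CPM against 8.52, 7.99 and 8.30 CPM (0.67, edgeR adjusted p 0.000161). SLC19A3, a thiamine importer, had 3.04, 3.09 and 2.36 CPM against 4.40, 4.61 and 4.71 CPM (0.69, edgeR adjusted p 0.00292). These 3 did not overlap between genotypes. SLC22A15 (0.34) and the lipocalin receptor SLC22A17 (0.25) rose as well, with edgeR adjusted p of 0.0143 and 0.00299. The remaining rises were the thiamine importer SLC19A2 (0.16, edgeR adjusted p 0.045) and, named after their values were seen, the choline carriers SLC44A1 (189 ± 7.32 to 214 ± 3.68 CPM, 0.18) and SLC44A2 (0.16). SLC19A2 lost its call with DESeq2, the replicate block, or without WT replicate 2 or 3 or knockout replicate 2 or 3 (0.0233 to 0.212 over all alternatives), and SLC22A15 without WT replicate 2 or 3 or knockout replicate 1 (0.00681 to 0.0784). The folate carrier SLC19A1 (−0.05) and the ascorbate carrier SLC23A2 (−0.04) were not called, with edgeR adjusted p of 0.586 and 0.66.

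The small remaining groups had at most 2 calls per direction, where 12.3% of all tested genes rose and 11% fell. Of 9 nucleoside and nucleotide sugar carriers 2 rose and 1 fell: the nucleoside carriers SLC29A1 went from 19.5 ± 1.25 to 23.8 ± 0.809 CPM (0.29, edgeR adjusted p 0.00319) and SLC29A2 from 49.4 ± 0.849 to 44.8 ± 1.11 CPM (−0.14, edgeR adjusted p 0.0446). SLC35A3, a Golgi importer of UDP-N-acetylglucosamine, rose by 0.12 (edgeR adjusted p 0.0364). Of 5 phosphate carriers SLC20A2, a sodium-phosphate importer, fell from 51.0 ± 1.87 to 44 ± 1.2 CPM (−0.21, edgeR adjusted p 0.00287), while its paralog SLC20A1 was not called (0.02, edgeR adjusted p 0.807). SLC37A2, a sugar-phosphate exchanger of the endoplasmic reticulum, rose by 0.52 (edgeR adjusted p 0.0215) with overlapping libraries. Of 8 lipid-related carriers none fell, and SLC27A6, a fatty acid importer, rose from 32.3 ± 0.738 to 38.9 ± 3.04 CPM (0.27, edgeR adjusted p 0.0014). SLC29A2 lost its call with upper-quartile scaling, DESeq2 or the replicate block, without any 1 of the WT replicates and without knockout replicate 1 or 3 (0.0384 to 0.148 over all alternatives). SLC35A3 lost it with DESeq2, the replicate block, or without WT replicate 2 or 3 or knockout replicate 2 or 3 (0.00343 to 0.191), and SLC37A2 with limma-voom or without WT replicate 2 or 3 or knockout replicate 1 or 3 (0.000405 to 0.145).

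Exons of 81 of the 173 tested members overlap another annotated gene, and no source used here says whether reads were counted by strand. Among those described, the overlap covered 69.1% of exon bases in SLC39A1, 55.6% in SLC7A6, 29.9% in SLC43A3 and 23.8% in SLC1A5. It covered 15.1% in SLC25A5, 14% in SLC19A1, 13.8% in SLC4A2 and 12% in SLC9A5. SLC25A29 had 10.6% and SLC29A2 10.3%. The values of all these genes are uncertain.

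Partner genes and regulators of carriers did not lean one way at day 2. Of 25 tested, 6 rose (24%) and 5 fell (20%), against 12.3% and 11% of all tested genes. SLC9A3R1, a scaffold of apical exchangers, went from 113.9 ± 9.79 to 92.7 ± 3.43 CPM (−0.30, edgeR adjusted p 5.04e-05). At day 0, with 1 library per genotype and no test, 26 partners and regulators reached 1 FPKM. Past 1.5-fold, 4 were lower (15.4%) and 0 higher, against 8.77% and 4.81% of all genes. TXNIP, named after its values were seen, had 76.7 FPKM in WT and 3.58 FPKM in the knockout (log2 ratio −4.08). Of 22 genes of the amino acid response, the ATF4 programme to which SLC7A11 belongs, 3 rose and 2 fell at day 2. These shares, 13.6% and 9.09%, were near those of all genes. CBS (0.33), VLDLR (0.37) and GPT2 (0.18) were up and, named after their values were seen, ATF5 (−0.36) and EIF4EBP1 (−0.12) down.

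At day 0 the SLC genes were divided, with 1 library per genotype and no test. Of 187 members of at least 1 FPKM in either library, 15 were 1.5-fold or more higher in the knockout (8.02%) and 19 lower (10.2%), on the log2(FPKM + 1) scale, which understates changes of low genes. Over all 13284 genes the shares were 4.81% and 8.77%, and the median log2 ratios were −0.07 for SLC genes and −0.03 for all. A pseudocount of 5 FPKM gave 10 higher and 5 lower, and a minimum of 5 FPKM gave 15 and 12. Zinc carriers had 3 higher and 2 lower of 17, mitochondrial carriers 4 and 1 of 38, amino acid carriers 4 and 5 of 36, hexose carriers 2 and 0 of 16, and vitamin, choline and organic ion carriers 0 and 2 of 19. Monocarboxylate and carboxylate carriers had 1 and 3 of 11.

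The largest decrease was in SLC7A11, the cystine/glutamate exchanger that supplies cysteine for glutathione (chr4:138164097-138242349, minus strand), from 17 to 3.76 FPKM (log2 ratio −1.92). SLC6A6 went from 52.8 to 24.7 FPKM (−1.06), the zinc exporter SLC30A1 from 11.7 to 5.37 FPKM (−1.0) and the thiamine importer SLC19A2 from 9.37 to 4.31 FPKM (−0.96). These 4 carry unlike cargo: cystine, taurine, zinc and thiamine. The fatty acid carrier SLC27A1 went from 7.54 to 3.80 FPKM (−0.83) and SLC43A1 from 17.2 to 10.4 FPKM (−0.67). Among the abundant carriers SLC16A1, at 103 and 66.3 FPKM, was lower past 1.5-fold, while SLC1A5, at 147 and 97.4 FPKM (−0.58), fell just short of it. In the same libraries 8.77% of all genes were lower by 1.5-fold or more and 4.81% higher. Of 23 amino acid response genes 14 were lower (60.9%) and none higher, with a median of −0.66. They included DDIT3 (11.1 and 0.854 FPKM), CHAC1 (17.8 and 3.69 FPKM), PCK2 (81.5 and 20.8 FPKM) and ASNS (98.5 and 37.7 FPKM), named after their values were seen.

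The highest ratio was in SLC39A1, from 29.9 to 82.6 FPKM (1.44), a gene with much exon overlap. SLC38A2, the glutamine and alanine importer induced by amino acid shortage, went from 74.5 to 153 FPKM (1.03), and its relative SLC38A5 from 9.08 to 18.6 FPKM (0.96). Both bring glutamine into the cell with sodium. SLC1A3 went from 4.63 to 9.89 FPKM (0.95), the lactate exporter SLC16A3 from 5.97 to 12.2 FPKM (0.92) and the zinc importer SLC39A8 from 4.95 to 9.76 FPKM (0.85). SLC2A1, the glucose importer, had 56.9 and 90.4 FPKM (0.66). Of 21 hexose metabolism genes 3 were higher by 1.5-fold or more (14.3%) and none lower, against 4.81% and 8.77% of all genes. The 3 included LDHA (92.5 and 206 FPKM) and PDK1 (3.09 and 8.47 FPKM), both named after their values were seen. At day 2 PDK1 was called higher (0.51) and LDHA lower (−0.13, edgeR adjusted p 0.00235).

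**Figure D3:**
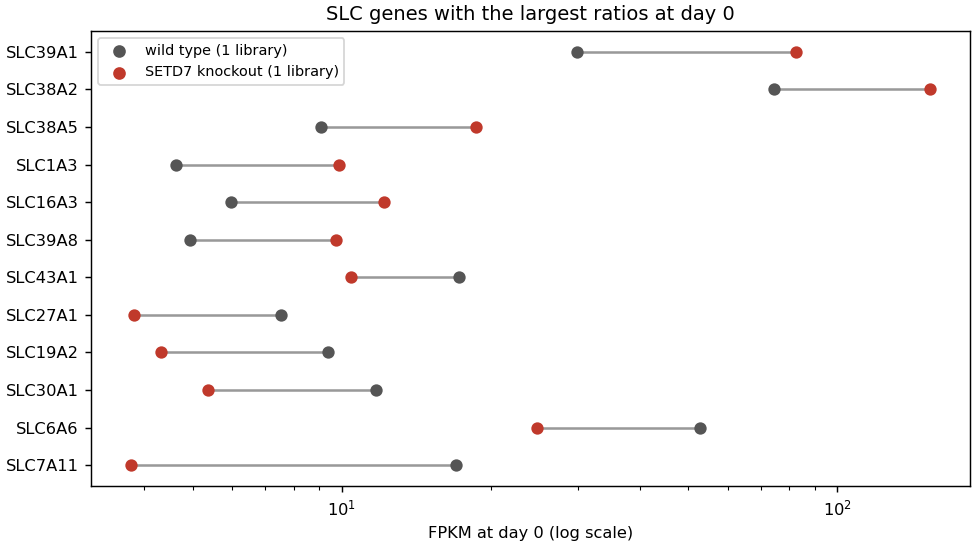
FPKM at day 0 (log axis) of the SLC genes with the 6 highest and 6 lowest ratios among those of at least 5 FPKM, with 1 point per genotype (grey wild type, red knockout, 1 library each). SLC39A1 and SLC38A2 lie furthest to the right in the knockout, at 82.6 and 153 FPKM, and SLC7A11 shows the widest gap downwards, from 17 to 3.76 FPKM.

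The differences of the 2 days were then set side by side, gene by gene. Across 164 members measured on both days, Pearson's r was −0.05 and Spearman's rho −0.13, against −0.14 and −0.16 across 10994 genes, a description across genes that share libraries and are not independent. Of 46 members called at day 2 and measured at day 0, 22 (47.8%) had the same sign on both days, against 38% of all genes called. Among the 36 that rose at day 2, 5 were higher and 4 lower past 1.5-fold at day 0, and of the 10 that fell none was lower and 1 was higher. Over all genes, 58 of the 1294 that rose were higher and 154 lower at day 0. Of the 1196 that fell, 46 were lower and 86 higher. SLC1A3, SLC16A3, SLC38A5, SLC39A10 (38.2 and 63.5 FPKM at day 0) and SLC17A9 (12.9 and 23.1 FPKM) were the 5 SLC genes higher on both. SLC38A4 and SLC1A6, which rose at day 2, had 9.93 and 9.65, and 4.67 and 5.98 FPKM at day 0. SLC4A8 had 4.56 and 3.58 FPKM. SLC7A11, the lowest ratio at day 0, was 51.7 ± 1.39 in WT and 55.6 ± 0.489 CPM in the knockout at day 2 (0.11, edgeR adjusted p 0.116).

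**Figure D4:**
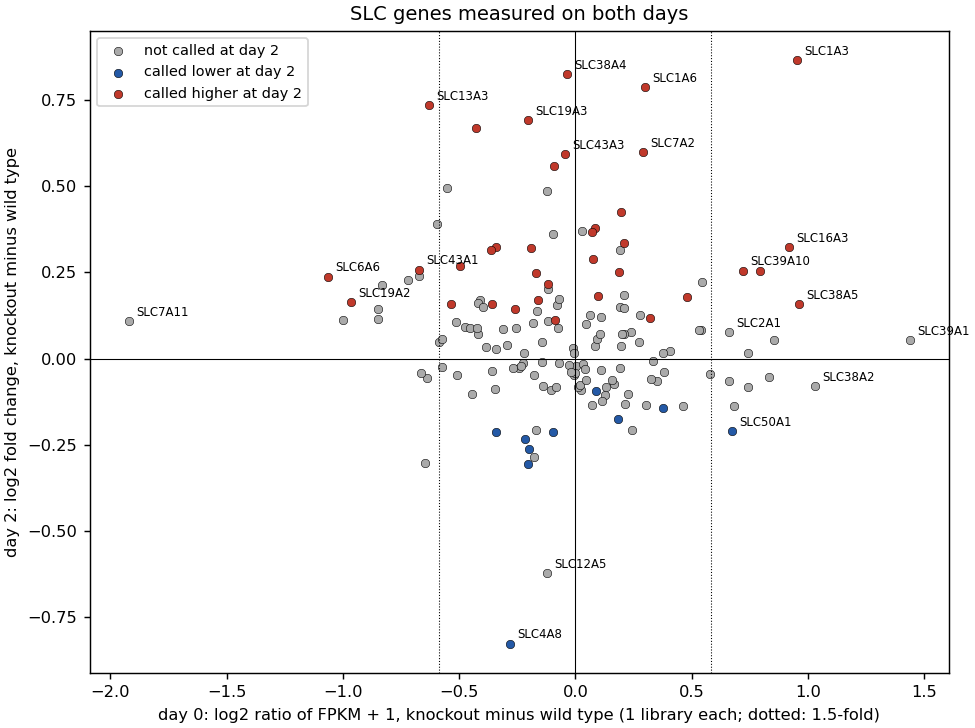
Day 0 log2 ratio of FPKM + 1 (horizontal axis, 1 library per genotype, dotted lines at 1.5-fold) against day 2 log2 fold change (vertical axis) for 164 SLC genes, both knockout minus wild type, coloured by the day 2 call. Points do not follow a diagonal (Pearson's r −0.05), SLC1A3 is far along both axes, and SLC7A11 and SLC39A1 sit at the horizontal extremes near 0.11 and 0.05 on the vertical axis.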

How the data were processed

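RNA-seq of H1 cells was compared between SETD7 knockout and wild type within each day. The day 2 table holds raw counts per gene and the day 0 table FPKM, per the file headers, as the authors deposited them. The submitters' processing notes name HISAT2, StringTie and the build GRCh38; the sources used here give no versions, counting tool or strand setting. The SMARTER mRNA-Seq kit was used for libraries, per the labels' protocols.

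Day 2 counts (3 libraries per genotype, totals 27880068 to 39553614) were filtered with filterByExpr, scaled by TMM and fitted with edgeR 4.0.16 in R 4.3.3 (robust quasi-likelihood F test, 2-sided, genotype only). P-values were Benjamini-Hochberg adjusted over 11475 genes at 0.05. Because no label calls the replicates separate cultures, the p-values reflect only the spread between samples, which may be a technical one. CPM were scaled by TMM, and SD are over 3 libraries. At day 0, genes of at least 1 FPKM in either of the 2 libraries were compared as log2(FPKM + 1), counted past 1.5-fold, with no test.

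Members were grouped by family number. Per group, up to 5 called genes in each direction by fold change and 2 abundant uncalled genes were named; at day 0 the 6 ratios furthest up and 6 furthest down, from 5 FPKM; the 10 highest levels; and up to 3 called genes per list. A few genes under this rule are not reported here. The members and lists were chosen with earlier results of these data known. GENCODE 29 gave positions and overlaps, and the RefSeq table gave upstream sequence. DESeq2 1.42.0, limma 3.58.1 (voom), other scalings, filters, the replicate block and leaving out each library were alternatives. The steps were tested on simulated data. Python 3.11.15 with pandas 2.3.3, numpy 2.4.6 and matplotlib 3.10.9 was used.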

Additional observations from a re-analysis of the deposited data

Results flagged for a closer look

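For 4 carriers whose day 2 libraries did not overlap between genotypes, the knockout differed from wild type in opposite directions on the 2 days, past the day 2 test and past 1.5-fold at day 0. The difference between the days was not tested, since day 0 has 1 library per genotype and another unit. SLC6A6, the taurine importer, had a log2 fold change of 0.24 at day 2 and a log2 ratio of −1.06 at day 0. SLC13A3, the dicarboxylate importer, had 0.73 at day 2 and −0.63 at day 0. SLC43A1, a carrier of large neutral amino acids, had 0.26 and −0.67, and its day 2 call was lost in 8 of 13 alternatives. The sugar carrier SLC50A1 went the other way, at −0.21 at day 2 and 0.67 at day 0. SLC19A2, a thiamine importer, was also called higher at day 2 (0.16) and was lower at day 0 (−0.96), but its day 2 libraries overlapped. With SLC19A2, 4 of the 36 SLC genes that rose at day 2 were lower past 1.5-fold at day 0. Of the 10 that fell, 1 was higher. Among all genes measured on both days the counts were 154 of 1294 and 86 of 1196, so such opposite calls were not particular to SLC genes.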

How the results depend on the processing

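Of the 49 SLC genes called at day 2, 30 were called under all 13 alternatives (26 of 39 higher, 4 of 10 lower) and 19 were lost in at least 1. The number called higher was 33 with DESeq2, 37 with limma-voom and 46 with upper-quartile scaling, and 29 to 39 when 1 library was left out. The number called lower was 9, 10 and 8 in those settings and 6 to 10 when 1 library was left out. Leaving out members with exon overlap, an alternative added after seeing the data, left 26 higher and 5 lower of 92 tested. No label says whether same-numbered samples were handled as pairs. Deviations of same-numbered wild-type and knockout libraries correlated at −0.085, −0.070 and −0.029. These values show no strong shared shift but cannot tell whether the samples were paired. With the replicate number as a block, 32 were higher and 8 lower, and 9 of the 49 calls were lost. Upper-quartile scaling moved the median of all genes most, to 0.013 on the log2 scale, and called 1605 genes higher and 1010 lower over the whole table, against 1406 and 1262.

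The number lower at day 0 was 5 with a pseudocount of 5 FPKM and 12 with a minimum of 5 FPKM, where 127 members were compared. It was 27 with a pseudocount of 0.1 FPKM and 18 with centred ratios, and the number higher was 10 to 19 over the alternatives.

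Some uncalled members near 0 changed sign. When 1 library was left out, SLC16A5 ran from −0.11 to 0.016 (positive without wild-type replicate 3) and SLC23A2 from −0.076 to 0.00642 (positive without wild-type replicate 2). SLC30A9 ran from −0.061 to 0.00484 and SLC41A1 from −0.00328 to 0.049, both changing sign without wild-type replicate 1. SLC35A2 ran from −0.028 to 0.014 (positive without wild-type replicate 2 or knockout replicate 3) and SLC5A6 from −0.030 to 0.017 (positive without wild-type replicate 2 or knockout replicate 1). With upper-quartile scaling SLC35A2 was 0.0046 and SLC5A6 0.00782. The cause of these shifts was not tested. Day 0 depth is unknown and its ratios have no replicate check.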
